A study of Rattus norvegicus with 9 samples.

Results

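The osteoblast transcription factors Runx2, Sp7 and Dlx5 and the mineralization genes Alpl, Ibsp, Spp1, Bglap, Sparc and Ank were followed across RNA from rat femoral fractures treated with 3 gels. Of these 9 genes, chosen by name, 8 were found under the same name among the 35360 genes of the count table. The remaining one, Ank, is listed there as Ankh, for which RefSeq gives Ank as a synonym, and it is called Ankh from here on. The series holds 9 libraries from the middle of the fracture. The 3 groups received the gel alone (Gel, labelled Control), the gel with the bisphosphonate ALN (ALN gel, labelled ALN+Gel), or the gel with a metal-organic material of magnesium and ALN (Mg-ALN gel, labelled Mg-ALN@Gel), with 3 libraries each. All 3 groups therefore share the fracture and the gel, and both bisphosphonate groups share ALN. The labels give no strain, sex, age, dose or time after fracture, nor do they state that the libraries of a group came from separate animals, so p-values measure only the spread between these libraries, which may be in part technical.

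Osteoblasts arise from mesenchymal precursors under Runx2, the runt-domain factor without which bone does not form. Sp7 (osterix) acts downstream of Runx2, and Dlx5 is a homeodomain factor that promotes both. Cells of the lineage first raise Alpl, the alkaline phosphatase that splits pyrophosphate, an inhibitor of mineral growth, and then secrete bone sialoprotein (Ibsp), osteopontin (Spp1), osteonectin (Sparc) and, when mature, osteocalcin (Bglap). Ankh carries ATP and pyrophosphate out of the cell and so works against Alpl in the balance that sets mineral deposition. In fracture callus several of these genes have other sources, since osteoclasts and macrophages also make Spp1 and hypertrophic cartilage cells also make Alpl, Ibsp, Runx2 and Spp1. In bulk tissue, fewer cells of a type and less RNA per cell cannot be told apart.

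Promoter sequence is shown for Bglap and Ibsp, which had the widest range between libraries, and for Sparc. Of the 9, only Sparc had all ALN gel libraries below those of both other groups, and it passed no adjusted threshold. The letters are the 250 bases before the gene start, 5′ to 3′ on the gene's strand, from RefSeq (build GRCr8). Windows of 7 of the 9 genes were used here, and those of Sp7 and Dlx5 were not analysed here. Capitals mark ACCACA, the core bound by RUNX factors, and TAATTA or TAATTG, the core bound by homeodomain factors such as Dlx5, on either strand (CAATTA is TAATTG on the other strand).
Bglap, chr2:176137319-176137568, minus strand: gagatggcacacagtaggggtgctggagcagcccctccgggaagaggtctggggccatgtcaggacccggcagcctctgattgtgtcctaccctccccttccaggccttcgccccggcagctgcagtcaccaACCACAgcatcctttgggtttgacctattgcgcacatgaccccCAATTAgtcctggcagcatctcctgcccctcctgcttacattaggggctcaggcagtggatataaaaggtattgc
Ibsp, chr14:5757243-5757492, minus strand: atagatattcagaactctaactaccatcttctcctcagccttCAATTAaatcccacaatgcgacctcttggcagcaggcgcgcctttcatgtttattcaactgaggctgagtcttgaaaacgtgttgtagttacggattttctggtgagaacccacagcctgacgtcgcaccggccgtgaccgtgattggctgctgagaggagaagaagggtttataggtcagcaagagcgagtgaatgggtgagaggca
Sparc, chr10:40038817-40039066, minus strand: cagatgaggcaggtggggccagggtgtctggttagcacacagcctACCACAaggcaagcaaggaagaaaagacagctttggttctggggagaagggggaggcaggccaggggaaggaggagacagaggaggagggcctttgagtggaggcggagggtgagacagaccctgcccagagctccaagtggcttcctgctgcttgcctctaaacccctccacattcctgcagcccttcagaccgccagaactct
The RUNX core lay at −118 to −113 in Bglap and at −205 to −200 in Sparc, counted from the gene start, and was not among the letters of the Ibsp window. The homeodomain core lay at −75 to −70 in Bglap and at −208 to −203 in Ibsp. Of 33469 rat promoter windows of the same length, 14.5% held ACCACA, 4.86% TAATTA and 7.31% TAATTG on either strand. The upstream of the 2 Runx2 starts listed held ACCACA at −76 to −71. GGGCGG, the GC box bound by Sp factors, was in 30.5% of windows and occurred 4 times in that of Alpl, 2 times in that of Ankh and in the downstream one of Runx2, with neighbouring matches in Alpl and Ankh sharing bases. These matches describe the letters only.

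All 9 genes were detected in every library and all passed the filter on low counts that left 15460 genes. The deposited table places Runx2 on chromosome 9 (18564927 to 18773092), Sp7 on 7 (143958858 to 143967484), Dlx5 on 4 (32387741 to 32392007), Alpl on 5 (156086497 to 156141537), Bglap on 2 (187741770 to 187742747), Ankh on 2 (80131563 to 80256954) and Sparc on 10 (40742400 to 40764185). Spp1 (6673686 to 6679901) and Ibsp (6801204 to 6813945) lie on chromosome 14. Their build is not given in the sources used here, and they cannot be set against the GRCr8 windows above. No other gene of the table with any count overlapped one of the 9.

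Per gene length, in the deposited FPKM values (fragments scaled to gene length and library size), the matrix genes stood far above the factors by their means. In Mg-ALN gel library 2, though, Bglap had 6.92 FPKM and Runx2 9.23. The mean over the 9 libraries was 5108 FPKM for Sparc, 3221 for Spp1, 1153 for Bglap, 836 for Ibsp, 135 for Alpl and 65.0 for Ankh. The factors followed at 16.4 FPKM for Dlx5, 15.9 for Runx2 and 14.2 for Sp7. In the steps from Ibsp to Alpl and from Ankh to Dlx5 the first gene was higher in 9 of 9 libraries each. The margin was narrow in Gel library 1 for Ankh (59.3 FPKM) over Dlx5 (58.4). In Mg-ALN gel library 2, Ibsp had 50.6 FPKM and Alpl 39.6. Bglap exceeded Ibsp in only 4 of 9 libraries and Dlx5 exceeded Runx2 in only 2 of 9, so these neighbours were not ordered beyond the spread. Bglap and Dlx5 both had their highest value in Gel library 1.

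Total counts ranged from 13388689 to 18763270 per library, and the share of mitochondrially encoded genes from 4.16% to 39.5%. In libraries 1 to 3 that share was 17.5%, 5.40% and 4.16% under Gel and 39.5%, 15.6% and 7.61% under ALN gel. Under Mg-ALN gel it was 11.2%, 10.6% and 31.6%. The part of this share in the levels of single libraries was not tested. Libraries of a group differed widely, with a common coefficient of variation between replicates of 51.4% in the edgeR fit. For the osteoblast genes 2 libraries stood apart within their groups. Gel library 1 was the highest of all 9 libraries for 6 of the 9 genes, against 14.1% of all genes tested, and Mg-ALN gel library 2 the lowest for 5 of the 9, against 6.43% of all genes. Among the 8 osteoblast markers none was at 0 in any library, and their summed level, most of which is Col1a1, was 40720 to 104763 CPM (counts scaled to library size) in Gel, 16023 to 31295 under ALN gel and 28538 to 35922 under Mg-ALN gel.

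**Figure D1:**
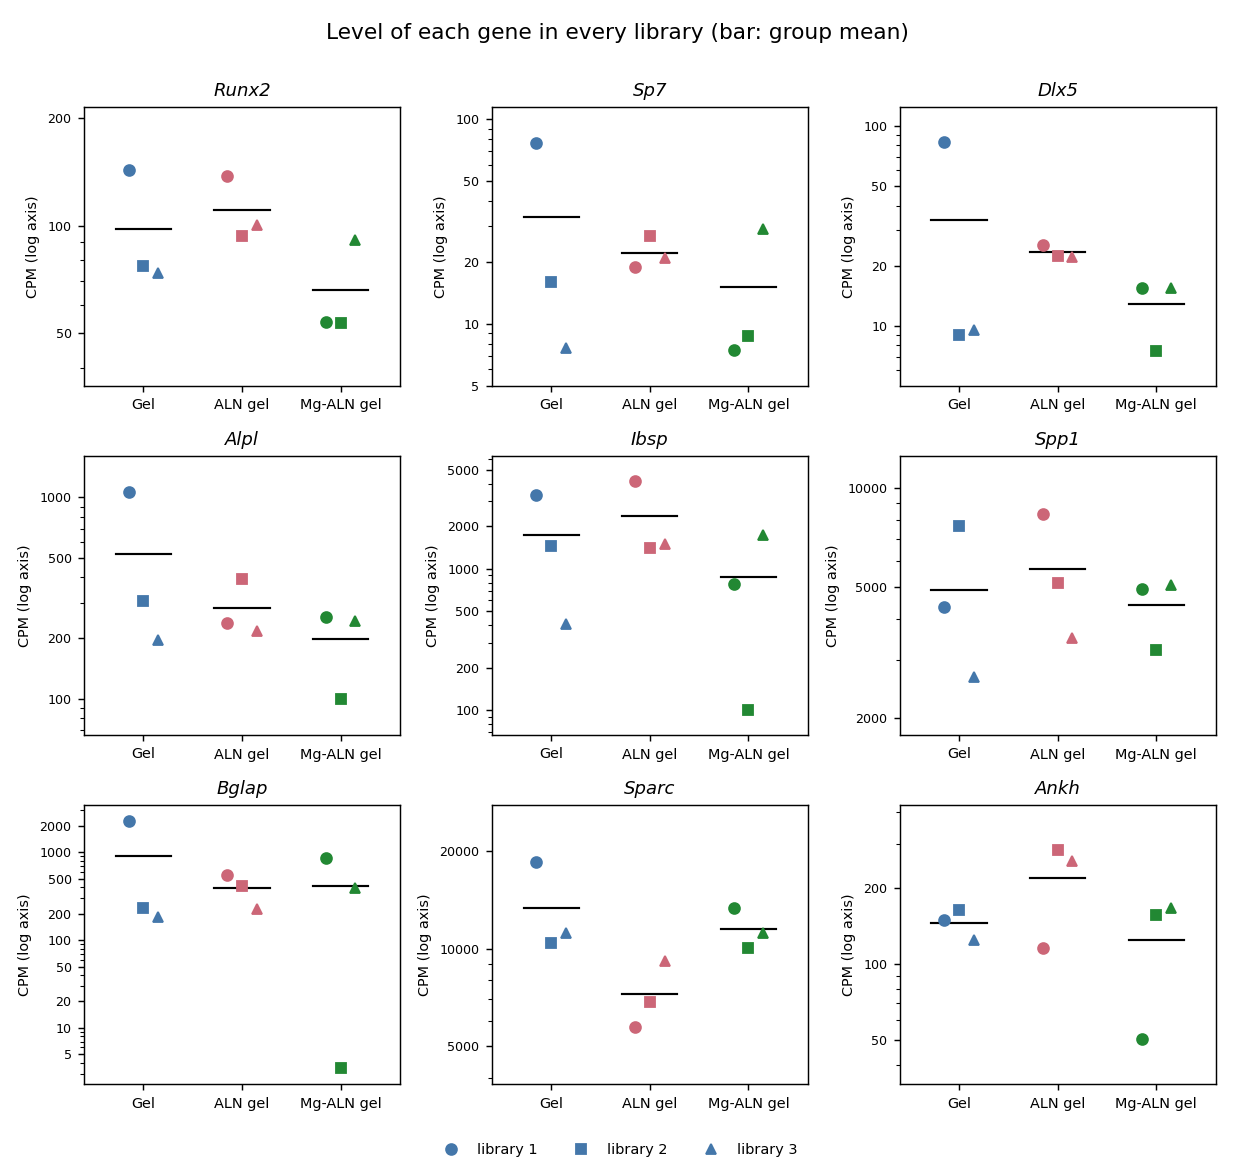
Level of the 9 genes in each library, in CPM on a log axis, by group, with symbols for the library number and a bar for the group mean. Gel library 1 is the highest point for Runx2, Sp7, Dlx5, Alpl, Bglap and Sparc, Mg-ALN gel library 2 the lowest for Ibsp and Bglap, and the Sparc points of ALN gel lie below all others.

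Runx2, the lineage's first factor, varied least among the 3 factors. It had 144, 77.4 and 73.7 CPM in the Gel libraries 1 to 3, 138, 93.6 and 100.2 under ALN gel, and 53.7, 53.4 and 91.3 under Mg-ALN gel. Every Mg-ALN gel library lay below every ALN gel library, but by a narrow margin between the nearest values, while both groups overlapped with Gel. Group means were 98.2 ± 39.3 CPM under Gel, 111 ± 24.0 under ALN gel and 66.1 ± 21.8 under Mg-ALN gel (SD, n = 3).

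Sp7, the factor that commits cells to the osteoblast fate, had 76.5, 16.0 and 7.65 CPM under Gel, 19.1, 26.9 and 21.0 under ALN gel, and 7.49, 8.70 and 29.3 under Mg-ALN gel. All 3 groups overlapped, with Gel library 1 2.61 times above the next library. Dlx5 had 83.1, 9.03 and 9.53 CPM under Gel, 25.5, 22.4 and 22.2 under ALN gel, and 15.4, 7.50 and 15.5 under Mg-ALN gel. The ALN gel libraries lay close together (23.4 ± 1.87 CPM, n = 3) and above all of Mg-ALN gel (12.8 ± 4.60), whereas those of Gel fell on both sides of them.

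Alpl, the phosphatase, had 1069, 304 and 195 CPM under Gel, 237, 392 and 216 under ALN gel, and 254, 98.9 and 242 under Mg-ALN gel. Gel library 1 was 2.73 times above the next library and all 3 groups overlapped. Ankh, which supplies the pyrophosphate that Alpl removes, did not share that pattern. It had 149, 163 and 124 CPM under Gel, 115, 284 and 256 under ALN gel, and 50.3, 157 and 167 under Mg-ALN gel. Its highest values were those of ALN gel libraries 2 and 3, its lowest that of Mg-ALN gel library 1, and the groups overlapped.

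Bglap, the marker of mature osteoblasts, had the widest range of the 9 genes. It had 2295, 234 and 185 CPM under Gel, 548, 412 and 224 under ALN gel, and 855, 3.45 and 395 under Mg-ALN gel. Mg-ALN gel library 2 held 58 Bglap counts, for which the exact Poisson 95% interval of 2.62 to 4.47 CPM covers counting error only, and the next lowest library was 53.7 times higher. Without that library Bglap spanned 185 to 2295 CPM, and the groups overlapped with and without it.

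Ibsp, which binds hydroxyapatite and integrins, had 3359, 1446 and 404 CPM under Gel, 4191, 1396 and 1495 under ALN gel, and 778, 100.1 and 1740 under Mg-ALN gel. Mg-ALN gel library 2 was again the lowest, with the next library 4.04 times higher, and the 3 groups overlapped. Spp1 varied far less, with 4365, 7668 and 2659 CPM under Gel, 8368, 5145 and 3491 under ALN gel, and 4930, 3206 and 5070 under Mg-ALN gel. Its groups overlapped, and Mg-ALN gel library 2 was the lowest of its group but lay above Gel library 3.

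Beside Spp1 stand the cells that also make it. The summed level of 8 osteoclast markers was 2098 to 17823 CPM under Gel, 21008 to 30923 under ALN gel and 3645 to 12073 under Mg-ALN gel, the defining marker Dcstamp being at 0 in 7 of 9 libraries. The sum of 6 macrophage markers, none at 0 in any library, was 1587 to 9404 CPM under Gel, 2792 to 9240 under ALN gel and 4072 to 23516 under Mg-ALN gel. Cartilage markers, 6 in all, summed to 74.7 to 477 CPM under Gel, 87.5 to 989 under ALN gel and 62.8 to 112 under Mg-ALN gel, with Col10a1 of hypertrophic cartilage at 0 in 3 libraries. The part of these cells in the levels of Spp1, Ibsp, Alpl and Runx2 was not tested.

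Sparc, a collagen-binding protein and the most abundant of the 9, was the gene whose ALN gel libraries lay below those of both other groups. Sparc had 18484, 10437 and 11156 CPM under Gel, 5748, 6834 and 9181 under ALN gel, and 13338, 10028 and 11207 under Mg-ALN gel. Group means were 13359 ± 4453, 7254 ± 1755 and 11524 ± 1678 CPM (SD, n = 3). Gel and Mg-ALN gel overlapped. Fibroblasts also make Sparc, and the sum of 4 fibroblast markers, none at 0 in any library, was 3603 to 6010 CPM under Gel, 1542 to 4445 under ALN gel and 4633 to 8179 under Mg-ALN gel. It was thus also lowest in ALN gel, with overlap with Gel, and the osteoclast sum given above was highest there without overlap. The part of these cells in the Sparc levels was not tested.

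**Figure D2:**
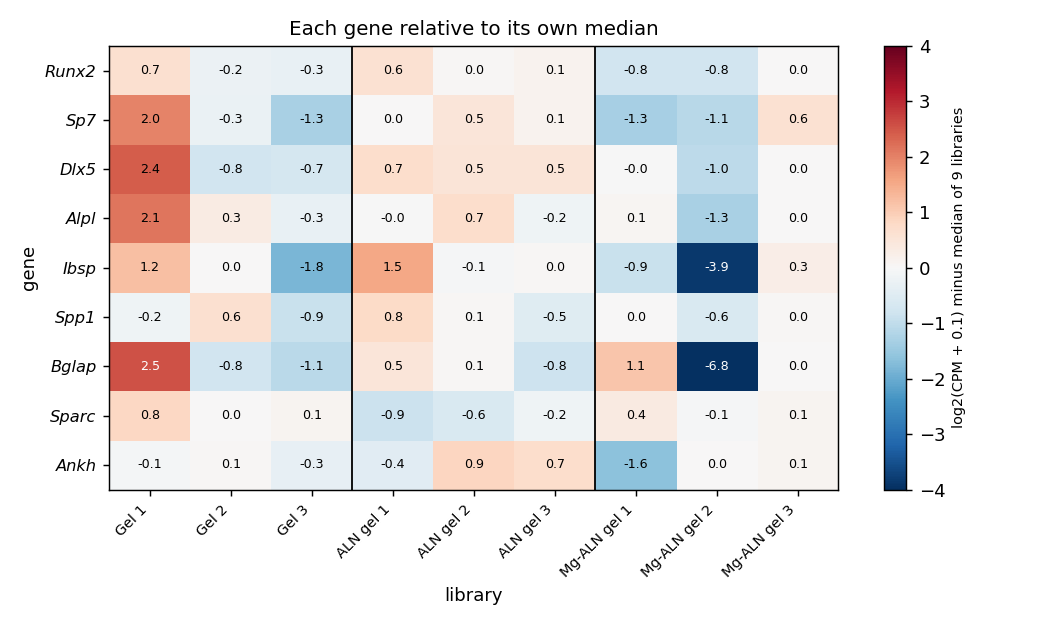
Each gene in each library as log2(CPM + 0.1) minus that gene's median over the 9 libraries, in colour and as numbers; red is higher and blue lower than the median, and colours end at −4 and 4. Gel library 1 is red for most genes, Mg-ALN gel library 2 is dark blue for Ibsp and Bglap and near the median for Sparc and Ankh.

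The ratio of late genes to the factor Runx2 within a library needs no scaling between libraries. It set Mg-ALN gel library 2 apart from all others. In Gel library 1 the Bglap ratio was above those of the other Gel libraries and level with Mg-ALN gel library 1. Its Ibsp ratio lay below that of ALN gel library 1. The log2 ratio of Bglap to Runx2 was 4.0, 1.60 and 1.33 under Gel, 1.99, 2.14 and 1.16 under ALN gel, and 3.99, −3.94 and 2.11 under Mg-ALN gel. That of Ibsp to Runx2 was 4.55, 4.22 and 2.46 under Gel, 4.92, 3.90 and 3.90 under ALN gel, and 3.86, 0.91 and 4.25 under Mg-ALN gel. Mg-ALN gel library 2 thus had Runx2 at the level of Mg-ALN gel library 1 (53.4 and 53.7 CPM) with far less Bglap and Ibsp. Against Col1a1, the main chain of type I collagen, the log2 ratio of Bglap was −5.41, −7.37 and −7.99 under Gel, −4.30, −5.68 and −7.02 under ALN gel, and −4.96, −13.11 and −6.40 under Mg-ALN gel.

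Ibsp and Spp1 belong to a cluster of mineral-binding proteins that the table lists on the minus strand of chromosome 14 within 259 kb, together with Mepe, Dmp1 and Dspp. Dspp, the dentin protein of the cluster, was at 0 in 9 of 9 libraries. Dmp1, made by osteocytes, had 251, 127 and 51.3 CPM under Gel, 207, 37.8 and 43.1 under ALN gel, and 127, 4.41 and 196 under Mg-ALN gel. Mepe, another osteocyte protein, had 51.4, 26.2 and 13.5 CPM under Gel, 65.1, 14.1 and 47.2 under ALN gel, and 34.4, 1.61 and 41.1 under Mg-ALN gel. Ibsp, Dmp1 and Mepe were thus all lowest in Mg-ALN gel library 2. Their neighbour Spp1, at 3206 CPM there, was also low, above only Gel library 3 at 2659 CPM.

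Other values of Mg-ALN gel library 2 are given beside this. Its 5 osteocyte markers summed to 9.95 CPM, against 163 and 247 in the other libraries of its group. Most of this sum is Dmp1 and Mepe, given above, so it is not a separate observation. The marker Fgf23 went the other way, with 3.16 CPM in Mg-ALN gel library 2 against 0 and 2.54 in its group. The 4 erythroid markers of Mg-ALN gel library 2 summed to 133 CPM against 4931 and 3928. Its 3 endothelial markers were the highest of all libraries at 566 CPM, and its 4 fibroblast markers, at 5640 CPM, lay between the 8179 and 4633 of its group. In Gel library 1, by contrast, the osteocyte sum was the highest of all libraries at 352 CPM, again mostly Dmp1 and Mepe. Sost there was 1.85 CPM, below the 4.46 to 9.23 CPM of the ALN gel libraries. The erythroid sum of Gel library 1 was 3993 CPM against 319 and 563 in the other Gel libraries. The part of these differences in tissue content in the levels of the 9 genes was not tested.

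The comparison of ALN gel with Gel concerns the effect of the bisphosphonate. None of the 9 genes (0) passed edgeR's quasi-likelihood test with Benjamini-Hochberg adjustment over all genes, where 0% of the 15460 genes were called. At an unadjusted p under 0.05 the count was 0 of 9 against 8.20% of all genes, limma-voom called 0 of 9 against 1.70%, and DESeq2 0 of 8 against 0.657%. DESeq2 gave no p-value for Dlx5 in any comparison. Sparc alone did not overlap between the groups, lying lower in ALN gel, where 5.03% of all genes lay lower and 11.1% higher without overlap (16.1% in all), and had a log2 fold change of −0.88 (SE 0.44, unadjusted p = 0.0739, edgeR adjusted p = 0.658). Log2 fold changes were negative for 5 of 9, against 50.2% of all genes, with a median of −0.53 against −0.0014 over all genes.

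By role, the factors had log2 fold changes of 0.17 (SE 0.33) for Runx2, −0.58 (SE 0.80) for Sp7 and −0.53 (SE 0.77) for Dlx5 under ALN gel versus Gel. For the pyrophosphate pair, Alpl had −0.89 (SE 0.63) and Ankh 0.59 (SE 0.47). Of the secreted proteins, Ibsp had 0.44 (SE 0.99), Spp1 0.21 (SE 0.50) and Bglap −1.20 (SE 1.42). The edgeR adjusted p-values of these 8 genes lay between 0.763 and 0.956. The signs depended on single libraries. Without Gel library 1, 8 of 9 genes were positive, with a median of 0.61, Dlx5 at 1.33, Sp7 at 0.92, Bglap at 0.91 and Sparc negative at −0.57, whereas without Gel library 3 or without ALN gel library 1, 8 of 9 were negative. With the replicate number as a block, Bglap had −0.15 and Dlx5 0.13, 4 of 9 were negative, the median was 0.13, and 0 of 9 were called.

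**Figure D3:**
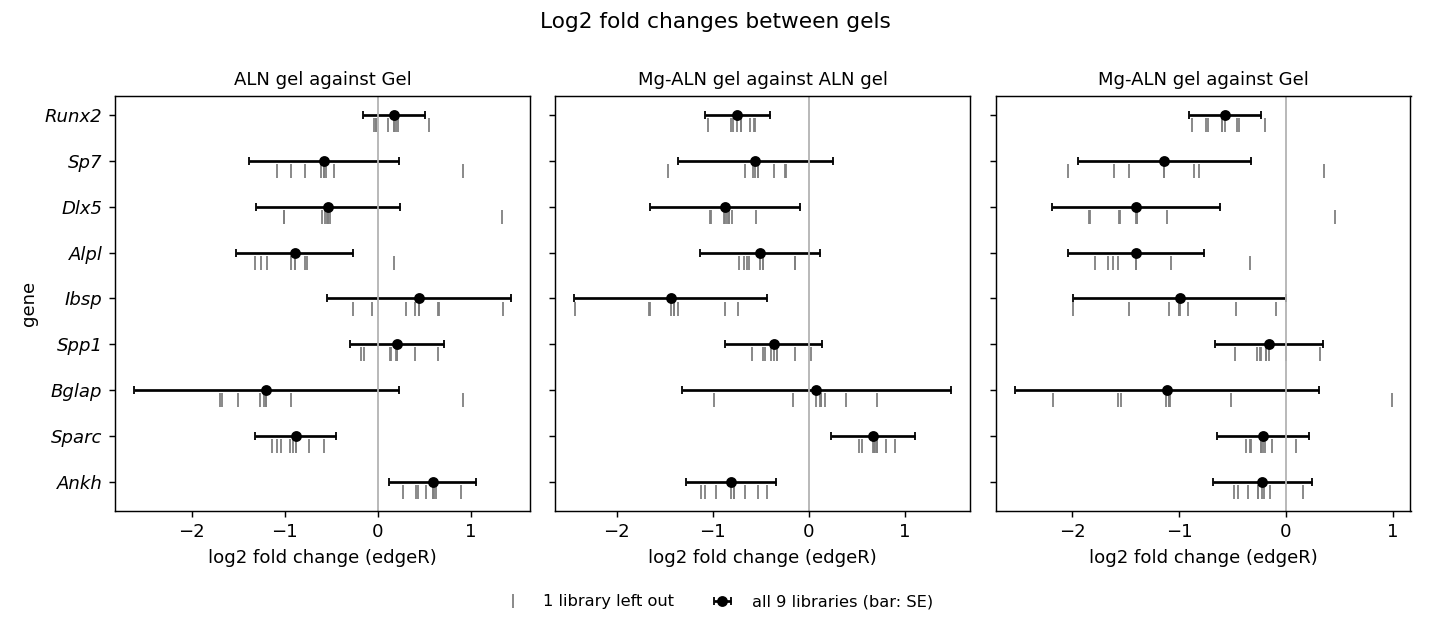
Log2 fold changes of the 9 genes from the edgeR fit in each of the 3 comparisons, with SE bars, and grey ticks for the values with 1 library left out. In ALN gel versus Gel the ticks of Sp7, Dlx5 and Bglap reach 0.92, 1.33 and 0.91 on the other side of 0, while all ticks of Sparc stay below 0.

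The comparison of Mg-ALN gel with ALN gel concerns the material of magnesium and ALN against ALN given without it, so that magnesium and the form in which ALN was given cannot be told apart. Again 0 of 9 genes passed edgeR's test (0% of all genes called), and 0 of 9 had an unadjusted p under 0.05, against 9.19% of all genes. DESeq2 called 0 of the 8 genes it tested, which leave out Dlx5, against 1.05% of all genes, and limma-voom 0 of 9 against 0.0323%. The groups did not overlap for 3 genes, 2 lower and 1 higher in Mg-ALN gel, where 9.77% of all genes lay lower and 6.76% higher (16.5% in all). Runx2 was lower in all Mg-ALN gel libraries, with a log2 fold change of −0.74 (SE 0.34, unadjusted p = 0.0547, edgeR adjusted p = 0.548), as was Dlx5 with −0.87 (SE 0.78, edgeR adjusted p = 0.747). Sparc was higher in all of them, with 0.67 (SE 0.43, edgeR adjusted p = 0.658).

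The other fold changes of Mg-ALN gel versus ALN gel were −0.56 (SE 0.81) for Sp7, −0.51 (SE 0.63) for Alpl, −1.44 (SE 1.0) for Ibsp, −0.36 (SE 0.51) for Spp1, −0.81 (SE 0.47) for Ankh and 0.08 (SE 1.40) for Bglap, on the log2 scale. Negative values were thus found for 7 of 9 genes, against 53.6% of all genes, with a median of −0.56 against −0.04 over all genes. Leaving out 1 library gave 6 to 8 negative genes and a median between −1.03 and −0.24, lowest without Mg-ALN gel library 3 and closest to 0 without Mg-ALN gel library 2. The Sparc values of this comparison and the previous one share the ALN gel libraries and are not independent of each other.

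In Mg-ALN gel versus Gel, the magnesium material set against the plain gel, all 9 of 9 log2 fold changes were negative, against 52.2% of all genes, with a median of −0.99 against −0.03 over all genes. Counts of signs, here and above, do not rest on independent genes. Over the 9 libraries, log2 CPM correlated at r = 0.85 for Runx2 and Ibsp and for Ibsp and Bglap, though at −0.38 for Spp1 and Sparc. By edgeR, 0 of 9 genes passed (0% of all genes called) and 0 of 9 had an unadjusted p under 0.05, against 9.31% of all genes. DESeq2 called 0 of 8, again without Dlx5, against 0.254% of all genes, and limma-voom 0 of 9 against 0%. Each gene's groups overlapped, while 8.56% of all genes lay lower and 9.76% higher without overlap (18.3% in all). The values nearest to the threshold were those of Alpl, −1.40 (SE 0.64, unadjusted p = 0.0552, edgeR adjusted p = 0.530), Dlx5, −1.40 (SE 0.79, adjusted p = 0.575) and Runx2, −0.57 (SE 0.34, adjusted p = 0.587).

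Sp7 had −1.14 (SE 0.81), Ibsp −0.99 (SE 0.99), Bglap −1.11 (SE 1.42), Ankh −0.22 (SE 0.47), Sparc −0.21 (SE 0.43) and Spp1 −0.15 (SE 0.50) on the log2 scale. Without Gel library 1, 5 of 9 genes were negative and the median was −0.09, with Alpl at −0.34, Dlx5 at 0.46 and Bglap at 0.99. Without Mg-ALN gel library 2, 8 of 9 were negative and the median was −0.47.

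Over the 3 groups together, edgeR's joint test gave adjusted p-values of 0.585 (Alpl) to 0.914 (Spp1), and 0 of 9 genes had an unadjusted p under 0.05, against 9.29% of all genes. An exact permutation test of log2 CPM over the 280 ways to form 3 groups of 3, whose smallest possible p is 0.00357, gave p = 0.0393 for Sparc and p = 0.182 to 0.793 for the other 8 genes, unadjusted for the 9 genes tested. The Sparc value rested on single libraries, rising to 0.154 without ALN gel library 1 and lying between 0.0571 and 0.10 without any of 6 others. For Dlx5, whose p was 0.636 with all libraries, the exact permutation p was 0.0464 without Gel library 1. That was the lowest of its values with 1 library left out. Leaving out libraries in this test was chosen after seeing the data, and these values are unadjusted.

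**Figure D4:**
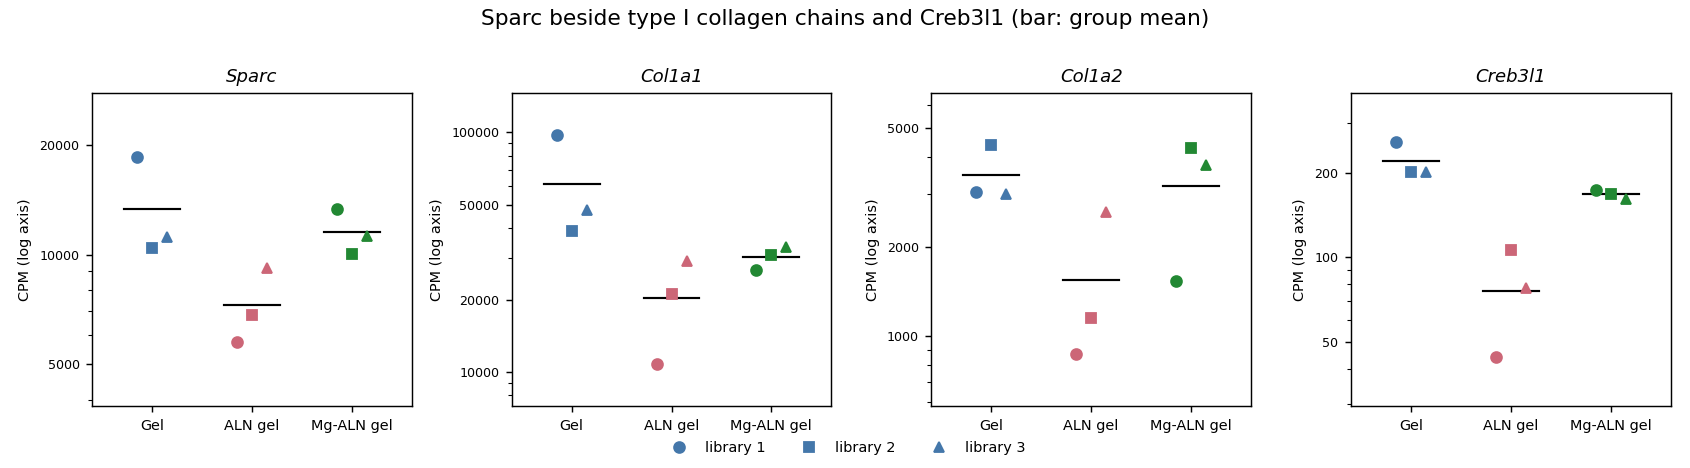
Sparc beside Col1a1, Col1a2 and Creb3l1 in each library, in CPM on a log axis, with symbols for the library number and a bar for the group mean. For Sparc, and for Creb3l1 at 44.1 to 106 CPM, the ALN gel points lie below those of both other groups, while the Col1a1 and Col1a2 points of ALN gel overlap with those of Mg-ALN gel.

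Among 20 other regulators of the osteoblast lineage, 18 were tested and 0 passed edgeR's adjusted threshold in any comparison. At an unadjusted p under 0.05, 1 was lower in ALN gel than in Gel, 2 were higher and 2 lower than ALN gel in Mg-ALN gel, and 3 were lower in Mg-ALN gel than in Gel, where either direction held 8.20%, 9.19% and 9.31% of all genes. Creb3l1, an endoplasmic reticulum factor that drives Col1a1 transcription in osteoblasts, had the smallest p in ALN gel versus Gel, with 256, 201 and 200.5 CPM under Gel and 44.1, 106 and 78.0 under ALN gel (log2 fold change −1.53, SE 0.30, edgeR adjusted p = 0.489). It was the 1 gene of the list that other tools called there, with adjusted p-values of 0.0044 by DESeq2, which gave one to 17 of the 18, and 0.0448 by voom with quality weights. In Mg-ALN gel it had 173, 168 and 161 CPM, so as for Sparc its ALN gel libraries lay below all others. Creb3l1 was named for its small p, and the share of all genes lying so was not computed. Twist1, an antagonist of Runx2, had −0.65 (SE 0.32) for ALN gel versus Gel, and Msx1 −1.34 (SE 0.64). The list had 14 of 18 negative values in ALN gel versus Gel (median −0.46), 10 of 18 under Mg-ALN gel versus ALN gel (−0.30) and 14 of 18 under Mg-ALN gel versus Gel (−0.61), against 50.2%, 53.6% and 52.2% of all genes.

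Dlx3, a homeodomain relative of Dlx5, had 43.8, 4.46 and 10.2 CPM under Gel, 16.1, 12.9 and 13.6 under ALN gel, and 3.70, 1.31 and 5.27 under Mg-ALN gel. It repeated the Dlx5 pattern of close ALN gel libraries above all those of Mg-ALN gel, with a log2 fold change of −2.05 (SE 0.80, edgeR adjusted p = 0.509) between these groups. Vdr, the vitamin D receptor that acts on the Bglap promoter, had 118, 85.8 and 106 CPM under ALN gel and 24.9, 7.21 and 44.0 under Mg-ALN gel (−2.02, SE 0.67, edgeR adjusted p = 0.497), also without overlap. Twist2 had 1.99 (SE 0.77) in that comparison. Against Gel, Mg-ALN gel had −1.29 (SE 0.54) for Tcf7, a Wnt-pathway factor, −0.998 (SE 0.43) for Mef2c and −1.80 (SE 0.80) for the hedgehog factor Gli2. In Gel libraries 1 to 3, Tcf7 had 19.8, 5.75 and 6.83 CPM, Mef2c 159, 42.7 and 112, and Gli2 18.3, 4.06 and 5.58. Within the list 11 of 18 were highest in Gel library 1 and 4 of 18 lowest in Mg-ALN gel library 2, against 14.1% and 6.43% of all genes.

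Of 16 other genes of mineral and pyrophosphate handling, 14 were tested and 0 passed in any comparison by edgeR or limma-voom, nor did any of the 13 to which DESeq2 gave an adjusted p. At an unadjusted p under 0.05 by edgeR, 1 was lower in ALN gel than in Gel, 2 were higher than ALN gel in Mg-ALN gel, and 2 were higher and 3 lower in Mg-ALN gel than in Gel, against 8.20%, 9.19% and 9.31% of all genes in either direction. Mgp, an inhibitor of soft-tissue calcification, had 163, 248 and 391 CPM under Gel, 95.9, 117 and 445 under ALN gel, and 1349, 656 and 663 under Mg-ALN gel. All 3 Mg-ALN gel libraries lay above the other 6, with log2 fold changes of 2.02 (SE 0.64, edgeR adjusted p = 0.497) against ALN gel and 1.73 (SE 0.63, edgeR adjusted p = 0.530) against Gel. Enpp1, which makes the pyrophosphate that Alpl splits, had 58.9 ± 14.7 CPM under Gel, 69.8 ± 57.5 under ALN gel and 56.4 ± 10.5 under Mg-ALN gel (n = 3).

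Slc20a2, a phosphate transporter, had −1.54 (SE 0.67) for ALN gel and −1.67 (SE 0.67) for Mg-ALN gel, each against Gel, where Gel library 1 at 124 CPM stood above 21.6 and 18.7 CPM in the other Gel libraries. Phex, the osteocyte peptidase that protects mineralization, showed the same outlying library, with 47.5, 8.58 and 7.08 CPM under Gel, 7.60, 1.38 and 7.47 under ALN gel, and 1.81, 0.655 and 5.84 under Mg-ALN gel. Its log2 fold change was −1.94 (SE 1.01) for ALN gel and −2.92 (SE 1.05) for Mg-ALN gel, against Gel. Car2, the carbonic anhydrase with which osteoclasts acidify bone, had 1.79 (SE 0.81) for ALN gel versus Gel and −1.70 (SE 0.81) for Mg-ALN gel versus ALN gel. Among the annexins, which bind calcium and membrane, Anxa2 had 0.81 (SE 0.29) for Mg-ALN gel versus Gel, and Anxa5 0.46 (SE 0.33) and Anxa6 0.74 (SE 0.29) for Mg-ALN gel versus ALN gel, while Anxa6 had −0.58 (SE 0.29) for ALN gel versus Gel.

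**Figure D5:**
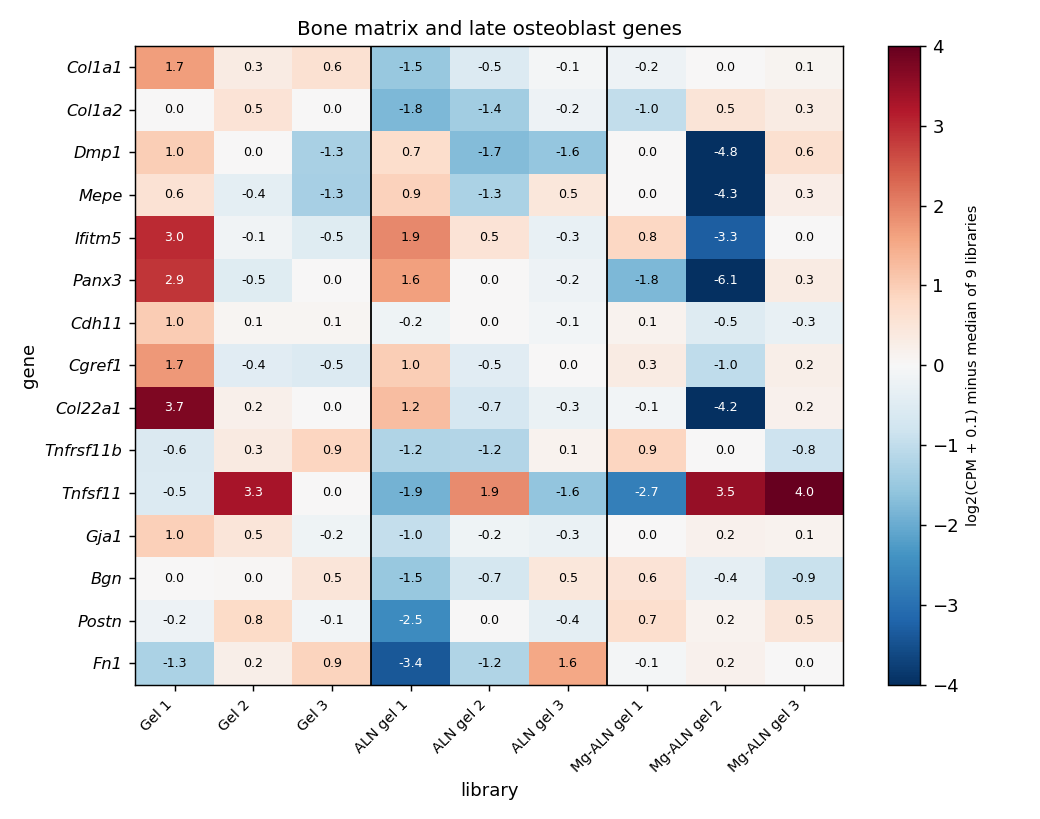
The 15 tested bone matrix and late osteoblast genes in each library, as log2(CPM + 0.1) minus the gene's median over the 9 libraries; red is higher, blue lower, and colours end at −4 and 4. Mg-ALN gel library 2 is dark blue for Dmp1, Mepe, Ifitm5, Panx3 and Col22a1 and near the median for Col1a1, Col1a2, Postn and Fn1, while Gel library 1 is red for Ifitm5, Panx3 and Col22a1.

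Of 16 bone matrix and late osteoblast genes, 15 were tested and 0 passed in any comparison by edgeR or limma-voom, nor did any of the 14 to which DESeq2 gave an adjusted p, which leave out Col22a1. At an unadjusted p under 0.05 by edgeR, 2 were lower in ALN gel than in Gel, 0 had such a p between Mg-ALN gel and ALN gel, and 1 was lower in Mg-ALN gel than in Gel, against the same 8.20%, 9.19% and 9.31% of all genes. Within the list 8 of 15 were highest in Gel library 1 and 7 of 15 lowest in Mg-ALN gel library 2, against 14.1% and 6.43% of all genes. Ifitm5, a membrane protein made almost solely by osteoblasts, had 77.4, 8.86 and 6.96 CPM under Gel, 36.8, 14.1 and 7.90 under ALN gel, and 17.4, 0.893 and 9.72 under Mg-ALN gel. Panx3, a channel of maturing osteoblasts and cartilage cells, had 134, 13.3 and 18.7 CPM under Gel, 57.7, 18.4 and 16.0 under ALN gel, and 5.28, 0.179 and 23.4 under Mg-ALN gel, with a log2 fold change of −2.52 (SE 1.35) for Mg-ALN gel versus Gel. Col22a1 had −2.89 (SE 1.27) there, and Cdh11, the osteoblast cadherin, −0.67 (SE 0.30).

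The abundant matrix genes of the list were not low in Mg-ALN gel library 2. Col1a1 had 97454, 38606 and 47262 CPM under Gel, 10756, 21141 and 29177 under ALN gel, and 26548, 30834 and 33366 under Mg-ALN gel. It was thus lower in every ALN gel library than in every Gel library, like Sparc and 5.03% of all genes, but overlapped between ALN gel and Mg-ALN gel (log2 fold change −1.59, SE 0.65, edgeR adjusted p = 0.583 against Gel, and 0.57, SE 0.64, for Mg-ALN gel versus ALN gel). Col1a2, the partner chain, had −1.17 (SE 0.53) and 1.05 (SE 0.53) in the same comparisons, Gja1, the gap junction protein of osteoblasts and osteocytes, −0.93 (SE 0.35) and 0.53 (SE 0.35), and Postn, a periosteal matrix protein, 1.09 (SE 0.59) for Mg-ALN gel versus ALN gel. Tnfsf11, the osteoclast differentiation factor RANKL, was at most 10.7 CPM in any library and had 2.78 (SE 1.81) for Mg-ALN gel versus ALN gel. The list's median was −0.85 under ALN gel versus Gel with 13 of 15 negative, 0.19 under Mg-ALN gel versus ALN gel with 7 of 15 negative, and −0.39 under Mg-ALN gel versus Gel with 13 of 15 negative, against 50.2%, 53.6% and 52.2% of all genes.

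For each of the 9 genes, the 3 protein-coding genes whose log2 CPM followed it most closely over the 9 libraries were looked up among 12159 candidates with a mean of at least 2 CPM, by Pearson's r and as a description, since all points share library depth and group and the closest of so many candidates are close by selection. For Sparc these were Brsk1 (r = 0.969), Fkbp10 (0.943), a collagen chaperone, and P3h1 (0.929), a collagen prolyl hydroxylase. For Runx2 they were Mto1 (0.975), Ppfia2 (0.974) and Cadm1 (0.970), for Sp7 Gne (0.957), Tmem120b (0.947) and Pard6g (0.940), and for Dlx5 Pdgfd (0.957), Diras3 (0.940) and Smad7 (0.939). Alpl was followed by Tnfrsf19 (0.952), Slc26a7 (0.945) and Pcsk6 (0.936), and Ankh by Mfsd12 (0.979), Llgl1 (0.967) and Uhmk1 (0.963). Bglap was followed by Cdo1, Slc36a2 and Col11a2 (each 0.967), Ibsp by Mcpt8l2 (0.984), Hpgds (0.976) and Acss3 (0.951), and Spp1 less closely by Lrmp (0.939), Etfdh (0.896) and Trim65 (0.867).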

How the data were processed

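Per the labels' protocols, RNA of rat fracture tissue was selected on poly-T beads and primed with random hexamers; no strand marking is mentioned. Tools listed in the submitters' processing notes, with no role given, are featureCounts 1.5.0-p3, HISAT2 2.0.5, edgeR 3.22.5, fastp, DESeq2 1.20.0 and StringTie 1.3.3b. The authors deposited raw read counts per gene, used for all tests, and FPKM values, used for levels between genes; each deposited FPKM equalled the count per length times a constant per library. A further table of the same FPKM values with group means was not used.

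Counts were fitted in R 4.3.3 with edgeR 4.0.16 (filterByExpr, TMM, quasi-likelihood, all 9 libraries, no block, two-sided, Benjamini-Hochberg over 15460 genes, threshold 0.05). The fit was checked on simulated data with less spread between replicates than here and with large changes only. That check does not show which changes could be detected in the 9 genes. SE is the log2 fold change over the square root of F, and log2 CPM has a prior count of 0.5. Alternatives were DESeq2 1.42.0, limma 3.58.1 voom with quality weights, RLE scaling, no filter, mitochondrial genes removed, the replicate block and each library left out. Between any pair of libraries, chi-square per degree of freedom was at least 79.5, so none was a duplicate. Deviations from group means correlated for equal replicate numbers between Gel and ALN gel (r = 0.341, 0.419 and 0.226 over genes) and so count as paired there, but not between Gel and Mg-ALN gel (−0.0767, −0.0452 and −0.199) or ALN gel and Mg-ALN gel (0.130, −0.120 and −0.127).

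The 9 genes and the lists were chosen with earlier results of these data known. Named besides the 9 were up to 4 genes per list and comparison with the smallest p, and the 3 genes most alike in pattern; Enpp1, Fn1, Dmp1, Mepe, Dspp and Ifitm5 were added after their values were seen.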

Additional observations from a re-analysis of the deposited data

How the results depend on the processing

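None of the 9 genes was called in any comparison under any alternative that gave it a p-value; DESeq2 gave none for Dlx5. Over all genes, against 0 calls by edgeR (1268, 1421 and 1439 genes at an unadjusted p under 0.05), DESeq2 called 95 genes between ALN gel and Gel, 171 between Mg-ALN gel and ALN gel, 48 between Mg-ALN gel and Gel and 193 in the joint test. In the same order limma-voom with quality weights called 263, 5, 0 and 28. With 1 library left out, 0 to 1 genes were called between ALN gel and Gel and 0 to 1 in the joint test, the single call arising without ALN gel library 3. The exact permutation p with 1 library left out, an alternative chosen after seeing the data, ranged from 0.0321 to 0.154 for Sparc and from 0.0464 to 0.918 for Dlx5.

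Signs of uncalled log2 fold changes turned as follows, and the cause was not tested. Quality weights, lowest for library 1 of each group, gave 0.83 for Sp7, 1.01 for Dlx5, 0.14 for Alpl and 0.47 for Bglap between ALN gel and Gel, −3.01 for Bglap between Mg-ALN gel and ALN gel, and 0.12 for Sp7 and 0.024 for Ankh between Mg-ALN gel and Gel. The replicate block gave 0.13 for Dlx5 between ALN gel and Gel and −0.77 for Bglap between Mg-ALN gel and ALN gel, and changed no call. With 1 library left out, the ranges between ALN gel and Gel were −0.042 to 0.55 for Runx2, −1.08 to 0.92 for Sp7, −1.01 to 1.33 for Dlx5, −1.32 to 0.17 for Alpl, −0.26 to 1.35 for Ibsp, −0.18 to 0.65 for Spp1 and −1.70 to 0.91 for Bglap. Between Mg-ALN gel and ALN gel they were −0.59 to 0.024 for Spp1 and −0.98 to 0.71 for Bglap. Between Mg-ALN gel and Gel they were −2.04 to 0.36 for Sp7, −1.84 to 0.46 for Dlx5, −0.48 to 0.32 for Spp1, −2.18 to 0.99 for Bglap, −0.37 to 0.091 for Sparc and −0.49 to 0.16 for Ankh.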
